A study of Rattus norvegicus with 20 samples.

Results

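The measurements described here cover 8 genes of the platelet-derived growth factor (PDGF) and vascular endothelial growth factor (VEGF) families: the ligand genes Pdgfa, Pdgfb, Pdgfc, Vegfa, Vegfb, Vegfc and Pgf, and the receptor gene Pdgfra. They were found by gene name or by the gene named in the probe description, which gave 10 of the 41012 rat probes and 8 of the 36318 genes on the array. Vegfa and Vegfb had 2 probes each and the others 1. The set was selected with results of these arrays in view, and Pdgfa was chosen by its sprouting ratio, which was raised at day 7. The day 7 ratios are therefore given as a description, with no test. Of the 8 genes, 7 passed a filter on brightness (for 1 cell type and day or more, a share of 0.5 of the arrays or higher well above background), and Pdgfc did not.

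The study examined cortical neurons of young rats after a stroke, all 2 months old. A tracer that is carried back along axons, cholera toxin B, was placed in the cortex beside the infarct with one fluorescent dye (488) and again with another dye (647), either 7 or 21 days later in separate cohorts, and the neurons were taken 7 days after the second injection. About 300 neurons of each type, called sprouting and non-sprouting in the labels, were cut out of each brain with a laser, and their RNA went through 2 rounds of amplification. Each array set the sprouting neurons of an animal against the non-sprouting neurons of the same animal in different dyes, and each animal had 2 arrays with the dyes exchanged, so 5 animals stood at day 7 and 5 at day 21. Every animal had a stroke and received both tracers, so no uninjured neurons are among the groups. The ratio of an animal is the mean over its 2 arrays of the log2 ratio of sprouting over non-sprouting neurons, and a level is a log2 channel intensity on a scale common to all arrays.

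PDGFs are secreted dimers of A, B, C or D chains that signal through the tyrosine kinase receptors Pdgfra and Pdgfrb. In the brain, PDGF-A acts on oligodendrocyte precursor cells, which carry Pdgfra, and PDGF-B draws pericytes, which carry Pdgfrb, to vessels. VEGFs act mainly on the endothelial receptors Flt1, Kdr and Flt4 and on neuropilins, and low oxygen induces Vegfa through the Hif transcription factors. Cortical neurons are known sources of several of these ligands.

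Median raw channel signals ran from 98.7 to 344.7 in Cy5 and from 133.9 to 281.4 in Cy3, over local backgrounds of 29 to 45, and 40.5% to 94.6% of probes per channel were well above background. The exchanged arrays of an animal correlated over genes at 0.335 to 0.734, except in day 21 animal 4, where they correlated at -0.358 and the ratios spread least (SD over genes 0.065). Of the neuronal markers, 13 of 14 were on the array and passed the filter, 9 of them well above background on all arrays in both channels, and their mean level ran from 10.13 to 10.54 in sprouting and from 10.18 to 10.56 in non-sprouting neurons. Markers of other cell types were measured in the same RNA. Of those that passed the filter, 8 of 12 oligodendrocyte, 8 of 12 astrocyte, 7 of 12 microglial, 8 of 13 endothelial and 4 of 8 precursor markers were well above background on all arrays. In RNA from captured tissue, fewer cells of a type and less RNA per cell cannot be told apart.

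Pdgfa encodes the PDGF A chain, whose homodimer binds Pdgfra. Its ratio at day 7 was 0.28, 0.23, 0.31, 0.04 and 0.29 in animals 1 to 5, and at day 21 it was 0.08, -0.18, 0.03, 0.02 and 0.09. All 5 animals of day 7 lay above 0, with animal 4 far below the others, and the days overlapped through that animal. The day 7 mean was 0.23 ± 0.11 (SD, n = 5), a fold of 1.17, which is the value that led to the gene's selection. The mean ratio of all genes had an SD over genes of 0.106 at day 7, and 3.51% of genes were higher in all 5 animals. On single arrays at day 7 the ratio ran from 0.005 to 0.319, with both dye orientations above 0 in every animal.

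At day 21, which the selection did not use, the mean Pdgfa ratio was 0.01 ± 0.11 (SD, n = 5). The limma estimate was 0.01 with a 95% interval from -0.10 to 0.12 (adjusted p = 0.991), above 0 in 4 of 5 animals. Sprouting and non-sprouting neurons thus had Pdgfa levels at day 21 that differed by less than the spread between animals. Their levels were 7.94, 7.65, 7.95, 8.19 and 7.69 in sprouting neurons and 7.85, 7.82, 7.92, 8.17 and 7.60 in non-sprouting neurons.

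At day 7 the Pdgfa levels were 8.48, 8.34, 8.35, 8.41 and 7.89 in sprouting neurons and 8.20, 8.11, 8.04, 8.38 and 7.60 in non-sprouting neurons. Animal 5 was lowest in both cell types, and the other 4 animals had sprouting levels above every day 21 animal. From day 7 to day 21 the mean level in sprouting neurons went from 8.29 ± 0.23 to 7.88 ± 0.22 (SD, n = 5 each), and in non-sprouting neurons from 8.06 ± 0.29 to 7.87 ± 0.21, given as a description since the day 7 levels make up the ratio that chose the gene. The mean over both cell types does not hold the sprouting ratio. It was lower at day 21 by 0.30 on the log2 scale (95% interval of the limma difference from -0.63 to 0.03, adjusted p = 0.526), and the days overlapped.

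**Figure D1:**
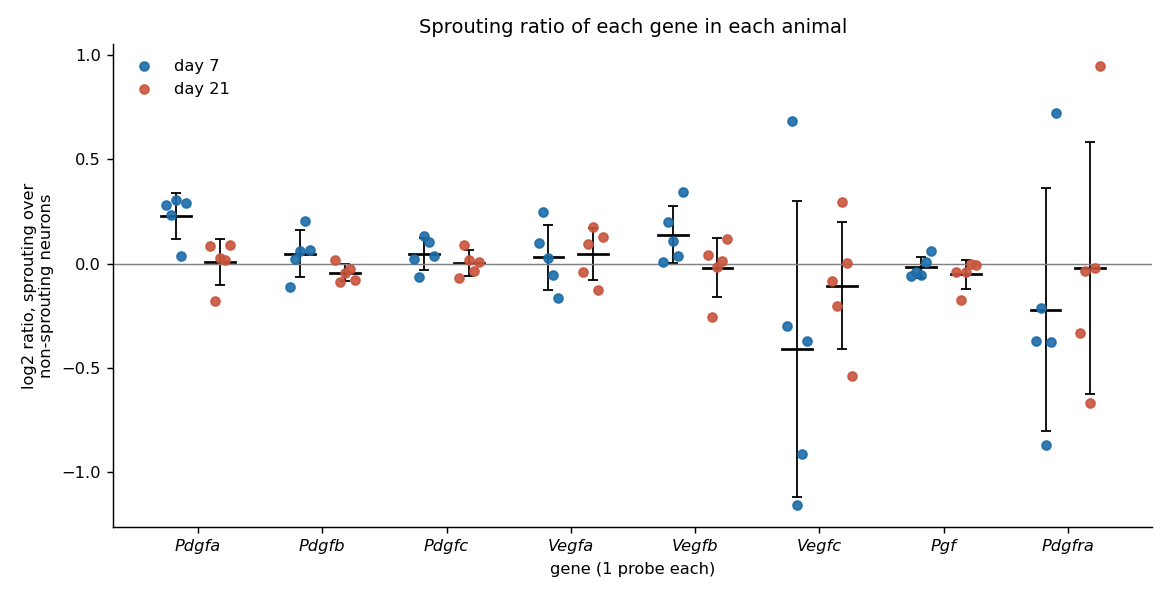
The plot shows the log2 ratio of sprouting over non-sprouting neurons (vertical axis) for each of the 8 genes, 1 point per animal, with day 7 in blue and day 21 in red. Black bars are means and whiskers are the SD over 5 animals; Pdgfa sits at 0.04 to 0.31 on day 7 and at -0.18 to 0.09 on day 21, while Vegfc and Pdgfra spread most widely, from -1.16 to 0.68 and from -0.87 to 0.72 on day 7.

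Pdgfb encodes the B chain, which binds both PDGF receptors and is made by endothelium as well as by neurons. Its ratio at day 7 was -0.11, 0.02, 0.06, 0.20 and 0.07, and at day 21 it was 0.02, -0.09, -0.04, -0.03 and -0.08. The ratios lay on both sides of 0 on both days and the days overlapped. The exchanged arrays had the same sign only in day 7 animal 4 and day 21 animals 3 and 5. In the other animals they differed in sign, such as -0.296 and 0.072 in day 7 animal 1. The day 21 mean was -0.04 ± 0.04 (SD, n = 5), with 4 of 5 animals below 0 and a limma interval from -0.13 to 0.05 (adjusted p = 0.912). The mean was -0.35 with the scanner's processed signals and -0.17 with median centring. The probe was dim: it was well above background on 5 of 10 arrays in sprouting and 4 of 10 in non-sprouting neurons at day 7, and on 7 and 8 of 10 at day 21.

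The level of Pdgfb differed far more between animals than between cell types. Averaged over both cell types it was 6.17, 6.19, 6.18, 7.10 and 8.57 at day 7 and 8.83, 6.53, 6.76, 7.12 and 8.07 at day 21. Day 7 animal 5 and day 21 animals 1 and 5 were high, day 7 animals 1 to 3 lay lowest, and the days overlapped. The day 21 minus day 7 difference was 0.62 (limma 95% interval from -0.61 to 1.85, adjusted p = 0.645). It was 0.28 without day 21 animal 1, 1.05 without day 7 animal 5, 1.14 with the scanner's processed signals and 0.22 with the scan day as a block. Within a scan day it was 1.80, -1.92 and 0.97 on the 3 scan days that held animals of both groups. Each of these days held only 1 animal of day 7 and 1 or 2 of day 21, and the values had no common direction.

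The dim Pdgfc probe, for a chain that is secreted in a latent form and acts through Pdgfra once cut, was well above background on at most 3 of 10 arrays in any cell type and day. Its ratio ran from -0.06 to 0.13 at day 7 and from -0.07 to 0.09 at day 21, with means of 0.05 ± 0.08 and 0.003 ± 0.06 (SD, n = 5 each). It entered no test, and a difference in Pdgfc was not detectable at this signal.

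Pdgfra, a receptor for the A, B and C chains and a defining marker of oligodendrocyte precursor cells, had a bright probe, well above background on all 20 arrays in both channels. Its ratio at day 7 was -0.37, -0.21, -0.87, -0.37 and 0.72, and at day 21 it was -0.33, -0.03, -0.67, -0.02 and 0.95. On each day 4 of 5 animals were below 0 and animal 5 was far above it. The dye-exchanged arrays of an animal were close, for example 0.67 and 0.78 in day 7 animal 5 and 0.91 and 0.98 in day 21 animal 5. The means were -0.22 ± 0.58 at day 7 and -0.02 ± 0.60 at day 21 (SD, n = 5 each), and the day 21 limma interval ran from -0.54 to 0.50 (adjusted p = 0.996). Without animal 5 the mean was -0.46 at day 7 and -0.26 at day 21. Without animal 3 it was -0.06 at day 7 and 0.14 at day 21, and without animal 1 it was 0.06 at day 21 (limma adjusted p from 0.875 to 1 over the animals left out in turn).

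The non-sprouting neurons of day 7 had Pdgfra levels of 10.90, 10.92, 10.90, 10.72 and 10.89, a spread (SD) of 0.08. The sprouting neurons of the same animals had 10.53, 10.71, 10.03, 10.35 and 11.61, a spread of 0.60. At day 21 the levels were 11.42, 10.48, 10.52, 10.44 and 9.82 in non-sprouting and 11.09, 10.45, 9.85, 10.41 and 10.77 in sprouting neurons. Thus the high ratio of day 7 animal 5 came with a high sprouting level, and that of day 21 animal 5 with a low non-sprouting level as well. The day 21 minus day 7 difference over both cell types was -0.23 (limma 95% interval from -0.71 to 0.25, adjusted p = 0.657). It was -0.42 without day 21 animal 1, -0.15 without day 21 animal 3 and -0.11 without day 7 animal 5. Within the 3 shared scan days it was 0.38, -0.93 and -0.24.

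Other precursor markers, such as the transcription factors Olig1, Olig2 and Sox10 and the proteoglycan Cspg4, were set beside Pdgfra. Of 11 listed, 8 were measured, and their mean level was 7.79 to 8.16 in sprouting and 7.73 to 8.21 in non-sprouting neurons at day 7, and 7.75 to 7.79 and 7.74 to 7.96 at day 21. Their median ratio was -0.10, -0.001, -0.27, 0.02 and 0.06 at day 7 and -0.06, -0.13, -0.05, -0.03 and 0.02 at day 21. In day 7 animal 5, where Pdgfra was 0.72, the 8 markers ran from -0.12 (Nkx2-2) to 1.20 (Olig1), with Sox10 at 0.60, Cspg4 at 0.36, Olig2 at 0.12, Bcan at 0.01, C1ql1 at 0.005 and Matn4 at -0.02. In day 7 animal 4, where Pdgfra was -0.37, the 8 markers ran from -0.10 (Nkx2-2) to 0.64 (Olig1), with a median of 0.02. Sox10 was 0.27 there, Cspg4 0.11, Olig2 0.06, Matn4 -0.01, C1ql1 -0.05 and Bcan -0.08. In day 21 animal 5, where Pdgfra was 0.95, the median was near 0. Over the 10 animals, the Pdgfra ratio and the precursor median had a Pearson r of 0.651 and a Spearman rho of 0.503 (r = 0.528 over the 8 left without the pair of animals farthest from the median of Pdgfra), given with no p. The part of precursor RNA in the Pdgfra ratio was not tested.

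**Figure D2:**
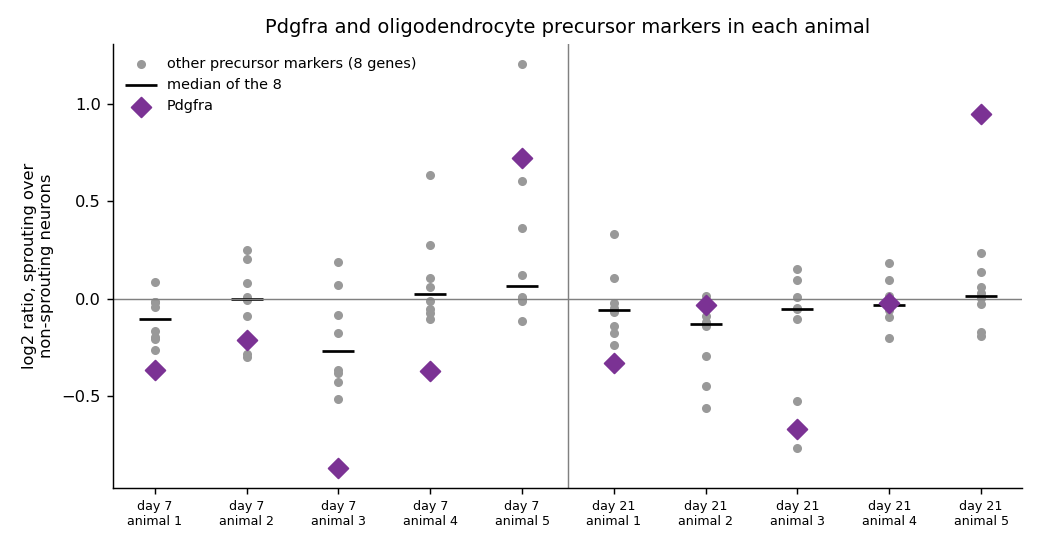
The plot shows the log2 ratio of sprouting over non-sprouting neurons for Pdgfra (purple diamonds), for 8 other precursor markers (grey points) and for their median (black bars) in each of the 10 animals. Pdgfra lies at 0.72 and 0.95 in animal 5 of each day and below 0 in all others, while the marker median stays between -0.27 and 0.06.

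Vegfa encodes the VEGF that low oxygen induces and that acts on endothelium through Flt1 and Kdr. The first of its probes, the brighter on average (A_44_P300751), gave ratios of 0.10, 0.25, 0.03, -0.05 and -0.17 at day 7 and of -0.04, 0.09, 0.18, -0.13 and 0.13 at day 21. The second (A_43_P15572) gave -0.08, 0.10, -0.11, -0.05 and -0.05 at day 7 and 0.04, -0.25, -0.02, -0.01 and -0.06 at day 21. Each probe had animals on both sides of 0 on both days. The day 21 mean was 0.05 ± 0.13 by the first probe (limma 95% interval from -0.09 to 0.18, adjusted p = 0.946) and -0.06 ± 0.11 by the second (SD, n = 5 each). It was -0.02 without background subtraction, -0.01 as the mean of both probes and 0.10 with the scanner's processed signals. The brighter probe was picked anew under each alternative, so the value without background subtraction need not be of the first probe. By the first probe the mean was 0.01 without animal 3, 0.09 without animal 4 and 0.03 without animal 5.

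The Vegfa probes disagreed on levels. Averaged over both cell types, the first read 8.38, 7.71, 7.55, 7.51 and 7.09 at day 7 and 6.97, 7.74, 8.19, 7.85 and 6.89 at day 21. The second read 6.62, 6.87, 6.73, 7.52 and 8.32 at day 7 and 9.01, 6.77, 7.20, 7.66 and 8.11 at day 21. The animals that were high by the second probe were low by the first, and over the 10 animals the probes had r = -0.774 (rho = -0.697, and r = -0.729 without the pair of farthest animals). The second probe instead ran with Pdgfb (r = 0.978, rho = 0.988, and r = 0.965 without the pair of farthest animals). Of 33061 other genes, 0.284% had a level at least as correlated with Pdgfb, and 5.91% had r of 0.8 or more. A further 9.32% had r of -0.8 or below with Pdgfb, and the first Vegfa probe had r = -0.798 with it. Levels that run with or against Pdgfb were thus not particular to Vegfa. The share of probes well above background, 71.4% to 91.8% per animal, had r = -0.109 with the level of Pdgfb and -0.212 with the second Vegfa probe. These relations are described without a p, and the points share the animals' amplification and hybridisation.

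By the first probe the Vegfa level differed between the days by -0.12 (limma 95% interval from -0.77 to 0.54, adjusted p = 0.871). The direction turned with the mean of both probes, at 0.21 (limma adjusted p = 0.603), and without background subtraction, at 0.48 (limma adjusted p = 0.645). Each alternative picked the brighter probe anew from its own levels, so the 0.48 need not be of the first probe. The second probe went from 7.21 ± 0.71 at day 7 to 7.75 ± 0.87 at day 21 (SD, n = 5 each). The direction by the first probe also turned when day 7 animal 1 was left out, at 0.07, or day 21 animal 1, at 0.02, or day 21 animal 5, at 0.04. Without day 7 animal 5 it was -0.26, without day 21 animal 3 -0.28 and without day 21 animal 4 -0.20. It turned as well with the scan day as a block, at 0.10.

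**Figure D3:**
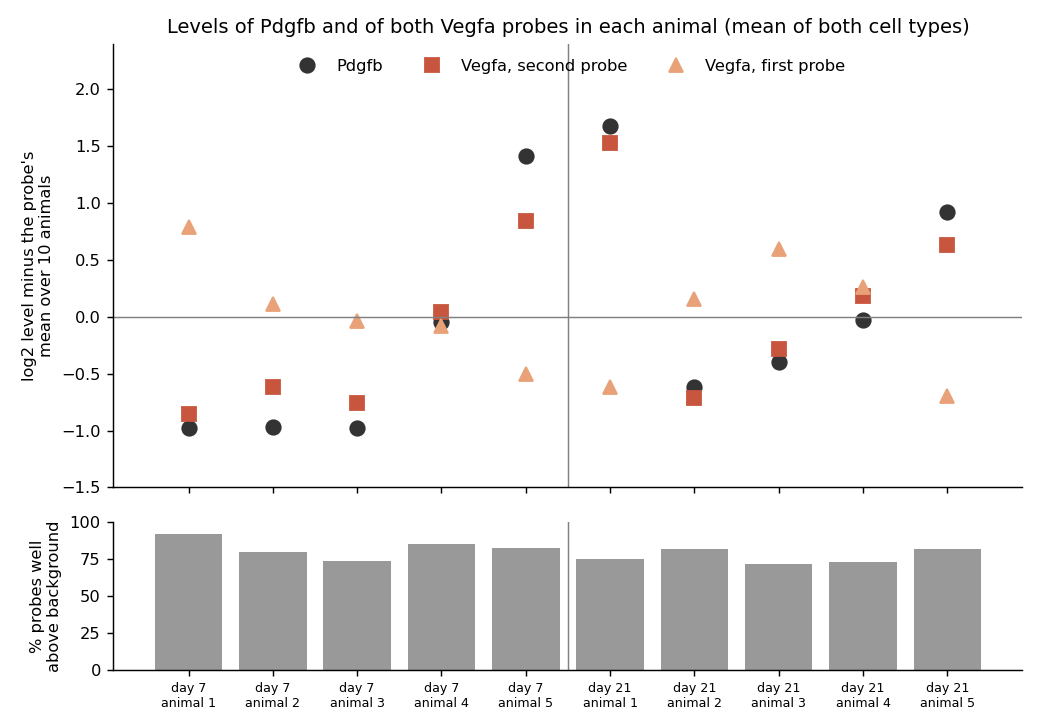
The upper panel shows, for each of the 10 animals, the log2 level (mean of both cell types) minus the mean of the same probe over all animals, for Pdgfb (black circles) and the second (red squares) and first (orange triangles) Vegfa probes; the lower panel shows the percent of probes well above background, from 71.4% to 91.8%. Pdgfb and the second Vegfa probe are high in day 7 animal 5 and day 21 animals 1 and 5, where the first Vegfa probe is low.

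Vegfb encodes a ligand of Flt1 that is known more for effects on cell survival and metabolism than for vessel growth. Its brighter probe gave ratios of 0.01, 0.20, 0.11, 0.04 and 0.34 at day 7 and of 0.04, -0.26, -0.02, 0.01 and 0.12 at day 21. The other gave -0.02, 0.13, 0.35, 0.03 and 0.32 at day 7 and -0.01, -0.23, 0.04, -0.02 and 0.17 at day 21. The probes ranked the animals alike (r = 0.859 over 10 animals, rho = 0.770, and r = 0.632 without the pair of farthest animals), with animal 5 of each day high and day 21 animal 2 low. The day 7 mean was 0.14 ± 0.14 by the brighter probe and 0.16 ± 0.17 by the other (SD, n = 5 each); by the brighter probe it was 0.09 without animal 5 and 0.08 with median centring. Pdgfa and, by its brighter probe, Vegfb were the 2 of 7 tested genes that were above 0 in all 5 animals at day 7, beside 3.51% of all genes, in the contrast from which Pdgfa was picked. The other Vegfb probe was above 0 in 4 of 5. By the brighter probe the exchanged arrays differed in sign in animals 1 (0.078 and -0.057) and 4 (0.077 and -0.005). In animals 2, 3 and 5 both arrays were above 0. The day 21 mean was -0.02 ± 0.14 (SD, n = 5; limma 95% interval from -0.15 to 0.11, adjusted p = 0.978), and it was 0.04 without animal 2.

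Vegfb levels by the brighter probe were 8.12, 8.37, 8.13, 8.08 and 7.98 in sprouting neurons at day 7 and 7.82, 7.50, 8.19, 7.85 and 7.52 at day 21. Day 21 animal 3 lay among the day 7 animals, and the other 4 lay below all of them. The difference was -0.36 (limma 95% interval from -0.68 to -0.03, unadjusted p = 0.0324, adjusted p = 0.559), and 8.83% of genes had an unadjusted p under 0.05 in that comparison. In non-sprouting neurons the levels were 8.11, 8.17, 8.03, 8.04 and 7.64 at day 7 and 7.78, 7.76, 8.21, 7.84 and 7.41 at day 21, a difference of -0.20 (limma interval from -0.54 to 0.15, adjusted p = 0.641). Over both cell types the difference was -0.28 (limma adjusted p = 0.534), and it was -0.17 as the mean of both probes. The other probe went from 7.55 ± 0.38 to 7.40 ± 0.25 in sprouting neurons, from 7.38 ± 0.43 to 7.41 ± 0.32 in non-sprouting neurons, which is the opposite direction, and from 7.47 ± 0.40 to 7.41 ± 0.28 over both (SD, n = 5 each). Within the 3 shared scan days the difference over both cell types by the brighter probe was -0.26, 0.11 and -0.60.

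The ratios of Pdgfa and Vegfb ran alike over the 10 animals, with r = 0.789 and rho = 0.697 (r = 0.658 without the pair of farthest animals, and 0.690 for deviations from the day means). By the other Vegfb probe r was 0.790. Of 33061 other genes, 0.496% had a ratio at least as correlated with Pdgfa, so Vegfb stood among 164 such genes. The pair was noticed in these data and is described without a p. The ratio of Pdgfa had r = -0.047 with that of Vegfa and 0.191 with that of Pdgfb.

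The RefSeq sequences of the 250 bases before the start of Pdgfa and Vegfb, whose ratios ran alike, and of Vegfa, whose ratio did not run with them, are shown for comparison (rat build GRCr8, 5′ to 3′ on the strand of the gene). Capitals mark GGGCGG, the core of the GC box bound by Sp factors, on either strand (read as CCGCCC on the other); adjoining and overlapping matches run together.
Pdgfa, chr12:20759116-20759365, plus strand: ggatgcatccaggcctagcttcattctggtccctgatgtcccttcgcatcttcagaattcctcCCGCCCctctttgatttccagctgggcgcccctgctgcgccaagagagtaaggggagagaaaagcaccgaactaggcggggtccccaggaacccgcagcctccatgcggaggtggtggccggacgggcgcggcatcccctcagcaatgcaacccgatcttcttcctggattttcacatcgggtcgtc
Vegfb, chr1:213607153-213607402, minus strand: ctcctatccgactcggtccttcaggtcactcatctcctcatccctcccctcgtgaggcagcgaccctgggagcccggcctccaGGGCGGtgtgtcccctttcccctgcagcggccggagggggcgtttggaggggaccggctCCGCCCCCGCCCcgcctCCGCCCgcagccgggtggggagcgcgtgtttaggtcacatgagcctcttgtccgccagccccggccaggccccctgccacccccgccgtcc
Vegfa, chr9:22452604-22452853, plus strand: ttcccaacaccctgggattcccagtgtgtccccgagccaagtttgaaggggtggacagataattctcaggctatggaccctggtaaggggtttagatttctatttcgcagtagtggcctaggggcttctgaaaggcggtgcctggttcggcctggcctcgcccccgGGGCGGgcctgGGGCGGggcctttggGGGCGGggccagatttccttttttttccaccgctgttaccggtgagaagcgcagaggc
The GC box matched once in the Pdgfa window, at 4 places in that of Vegfb and at 3 in that of the first Vegfa start. The table holds a second Vegfa start, whose window (chr9:22460028-22460277) had 0 matches and a G and C share of 56%. The GC box was present in 30.5% of the 33469 windows of the same length in the table. The hypoxia response core ACGTG, found in 16.6% of windows on either strand, was in none of these 3 windows. The G and C share was 60.8%, 73.2% and 60.4%, against a median of 51.2% over all windows. These matches say only which letters are present.

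Vegfc encodes a ligand of Flt4 and Kdr known for lymphatic growth. Its ratio at day 7 was -0.30, 0.68, -1.16, -0.91 and -0.37, and at day 21 it was -0.08, -0.20, 0.30, 0.01 and -0.54. At day 7, 4 of 5 animals were below 0 and animal 2 was well above it. The day 7 mean was -0.41 ± 0.71 (SD, n = 5), and the day 21 mean was -0.10 ± 0.30 (limma 95% interval from -0.59 to 0.38, adjusted p = 0.969). The exchanged arrays of an animal gave close values, such as -1.14 and -1.17 in day 7 animal 3, though 0.10 and -0.09 in day 21 animal 4. The spread thus lay mainly between the RNA samples of the animals rather than between dyes. Both arrays carry the same amplified RNA, so differences between animals and those of capture or amplification cannot be told apart. The day 21 mean was 0.004 without animal 5 and -0.21 without animal 3, and the day 7 mean was -0.68 without animal 2 and -0.22 without animal 3.

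In non-sprouting neurons the Vegfc level was 9.33, 8.75, 10.02, 9.23 and 9.31 at day 7, and in sprouting neurons it was 9.03, 9.43, 8.86, 8.32 and 8.94. At day 21 the levels were 8.38, 9.14, 8.90, 8.86 and 9.66 in non-sprouting neurons and 8.30, 8.94, 9.19, 8.87 and 9.12 in sprouting neurons. Cell types and days overlapped. The level over both cell types differed between the days by -0.19 (limma 95% interval from -0.61 to 0.23, adjusted p = 0.679), and within the 3 shared scan days by -0.84, -0.08 and 0.62. The difference was -0.04 without day 21 animal 1, -0.11 without day 7 animal 3, -0.30 without day 21 animal 5 and -0.11 with the scanner's processed signals.

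Pgf, placental growth factor, which binds Flt1, had ratios close to 0: -0.06, -0.04, -0.05, 0.01 and 0.06 at day 7 and -0.04, -0.17, -0.04, 0.001 and -0.01 at day 21. The means were -0.02 ± 0.05 and -0.05 ± 0.07 (SD, n = 5 each), and at day 21 the limma interval ran from -0.12 to 0.02 (adjusted p = 0.864). The day 21 mean was -0.02 without animal 2, -0.005 with the scanner's processed signals and -0.01 with median centring. The exchanged arrays had the same sign only in day 7 animal 5 and day 21 animals 1 and 2. The probe was well above background on 9 or 10 of 10 arrays in each cell type and day. Its level over both cell types was 7.29, 7.16, 7.01, 6.86 and 6.66 at day 7 and 6.95, 7.01, 6.91, 7.03 and 6.70 at day 21, so the day 21 animals lay within the range of day 7. The difference was -0.08 (limma 95% interval from -0.37 to 0.21, adjusted p = 0.80), and it was 0.06 with the scan day as a block, -0.005 without day 7 animal 1, -0.04 without day 7 animal 2, -0.16 without day 7 animal 5 and -0.02 without day 21 animal 5.

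**Figure D4:**
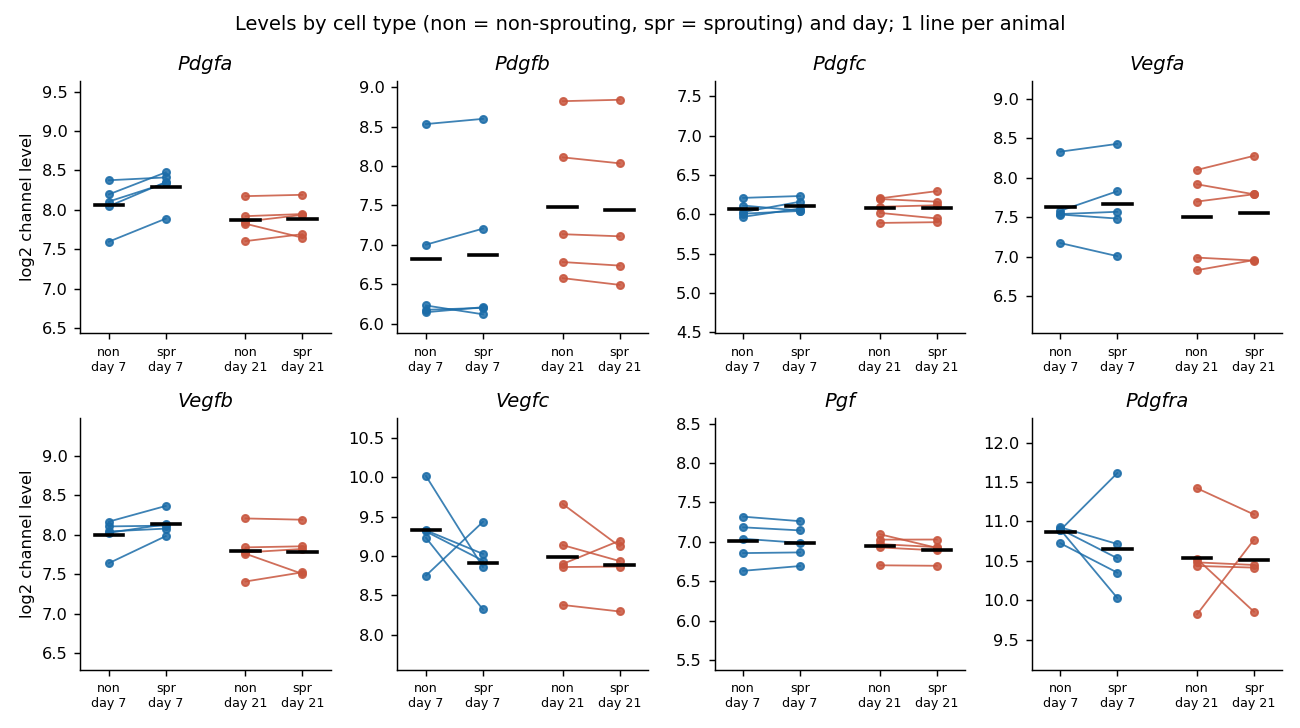
Each panel shows, for 1 gene, the log2 channel level in non-sprouting and sprouting neurons at day 7 (blue) and day 21 (red), with a line joining both values of an animal and black bars for the means over 5 animals; every vertical axis spans the same number of log2 units around a centre of its own. Lines of Pdgfb lie far apart but nearly flat, those of Vegfc and Pdgfra cross, and those of Pdgfa rise at day 7 (mean 8.06 to 8.29) and are near flat at day 21 (7.87 to 7.88).

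Over the 7 tested genes, none passed an adjusted p of 0.05 in limma for the day 21 ratio, as was so for all 33091 genes tested (0%). None had an unadjusted p under 0.05 at day 21, against 5.86% of all genes. None was above 0 in all 5 animals at day 21 (4.29% of genes) or below 0 in all 5 (4.08%). The day 21 mean was below 0 for 5 of the 7, and 49% of all genes were above 0. In the day 7 contrast, which the selection used, 0.00302% of genes passed the adjusted threshold.

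For the levels over time, none of the 7 genes passed the adjusted threshold over both cell types (0% of all genes), and none had an unadjusted p under 0.05 (9.61% of genes). None had days that did not overlap (1.7% of genes). The level was lower at day 21 for 6 of the 7, all but Pdgfb. Of these, Vegfa turned under 6 of its 20 alternatives and Pgf under 1, while Pdgfa, Pdgfra, Vegfb and Vegfc were lower under each of their 20. For comparison, 41.2% of all genes were higher at day 21, with a median difference over all genes of -0.05. Within a cell type 6 genes were tested, since Pdgfa was given there as a description. In sprouting neurons 1 of the 6, Vegfb, had an unadjusted p under 0.05, against 8.83% of genes. In non-sprouting neurons 0 of 6 did, against 8.98% of genes by limma. No gene passed after adjustment in either cell type (0% in each).

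The other ligands and the receptors were listed around these genes. Pdgfd, Vegfd and the receptor-like Pdgfrl had mean day 21 ratios of -0.01, -0.09 and -0.10. Of 9 listed receptors 7 were tested, with 2 above and 5 below 0 at day 21 (median -0.03), and none passed. The 7 include Tek, Tie1 and Lrp1 (0.06, -0.03 and -0.03), which lie outside the PDGF and VEGF receptor families. Pdgfrb, the pericyte receptor of PDGF-B, had a mean of -0.17 ± 0.17 at day 21, and Kdr, the main signalling receptor of VEGF-A, of -0.09 ± 0.20 (SD, n = 5 each; limma adjusted p = 0.862 and 0.978). Nrp1, a neuropilin that binds VEGF-A and semaphorins, was above 0 in all 5 animals of day 21 at 0.16, 0.17, 0.03, 0.04 and 0.08 (mean 0.10 ± 0.07, limma adjusted p = 0.908). That mean was 0.03 with median centring and 0.22 with the scanner's processed signals.

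Of the 42 measured genes of receptor signalling, 17 were above and 25 below 0 at day 21 (median -0.03), and none passed. The 3 with the smallest unadjusted p and 1 sign in all animals were Pik3cd, a catalytic subunit of PI3-kinase (-0.13 ± 0.10), Fyn, a Src-family kinase (0.18 ± 0.09), and the adaptor Nck1 (-0.11 ± 0.10), each with n = 5 and a limma adjusted p of 0.836. The Pik3cd mean was -0.46 with the scanner's processed signals and -0.06 with median centring, and the Fyn mean was 0.09 over its probes. A list of 14 genes joined those of oxygen sensing with the more general transcription factors Sp1, Ets1, Klf5 and Egr1. Of the 14, 6 were above and 8 below 0 (median -0.004). Sp1, Ets1 and Klf5 were among those above 0 (0.01, 0.06 and 0.09), and Egr1 was below (-0.01). Epas1 and Hif3a, both Hif alpha subunits, had means of 0.04 and -0.06. Epas1 was -0.09 with the scanner's processed signals, 0.08 with median centring and 0.02 without background subtraction.

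Of 27 genes known to be induced by low oxygen, 16 were above and 11 below 0 at day 21 (median 0.01). Those with 1 sign in all 5 animals and the smallest p were Vldlr, a lipoprotein and reelin receptor (-0.11 ± 0.07), Hmox1, a haem oxygenase (-0.08 ± 0.06), and Slc2a1, the glucose transporter of the blood-brain barrier (-0.28 ± 0.30), with limma adjusted p of 0.836 in each. Vldlr was -0.17 with the scanner's processed signals, Slc2a1 was -0.18 without animal 2, and Hmox1 was -0.02 without background subtraction, -0.04 with median centring and -0.04 with the processed signals. Of 12 angiopoietin and other vascular ligands, 3 were above and 9 below 0 (median -0.02), and Tgfb1 stood at 0.09, 0.04, 1.28, 0.10 and 0.14 (mean 0.33 ± 0.53, limma adjusted p = 0.836), with a mean of 0.09 without animal 3, 0.03 without background subtraction and 0.11 by the authors' deposited table of ratios. Of 9 genes for ligand processing and binding, 1 was above and 8 below 0 (median -0.03).

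Over all 114 tested genes of these lists, which hold 6 with an unadjusted limma p under 0.05 at day 21 (1 above and 5 below 0, or 5.26%), the share was close to the 5.86% of all genes. For the level over time it was 10 of 114 (8.77%, 1 higher and 9 lower at day 21), beside 9.61% of all genes. The median day 21 ratio of the 114 was -0.02 and that of all genes -0.001.

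By Pearson r of the ratio over the 10 animals among 14434 named genes, the 5 most like Pdgfa were Cat (0.904), Rer1 (0.899), Prelid1 (0.898), St8sia4 (0.893) and Dapk2 (0.889). Among those most like Vegfa by its first probe were Ece2 (0.947), Ceacam3 (0.923), Or2z2 (0.909) and Alkbh3 (0.901). These are the highest of that many values over 10 animals and carry no p. The values for Pdgfa hold the day 7 ratios that chose the gene. Each of the 5 genes most like it had a higher mean ratio at day 7 than at day 21, such as Cat at 0.149 and -0.004.

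The oligodendrocyte markers, of which 12 of 13 were measured, had median ratios of -0.58, 0.20, -0.06, 0.85 and 0.94 at day 7 and 0.63, -0.27, -0.33, 0.002 and -0.13 at day 21. By mean ratio, 12 of the 12 were above 0 at day 7 (median 0.314) and 3 of 12 at day 21 (median -0.018). Of all genes, 46.5% were above 0 at day 7 and 49% at day 21. The day difference of the markers ran the same way as that of Pdgfa, which holds the day 7 ratio that chose the gene. Among the day 7 animals, the Pdgfa ratios of 0.28, 0.23, 0.31, 0.04 and 0.29 stood beside these marker medians in the same order: animal 5 was high in both, animal 4 was high in the markers and lowest in Pdgfa, and animal 1 was lowest in the markers. The part of oligodendrocyte RNA in the Pdgfa ratio was not tested. Over the 10 animals r between the Pdgfa ratio and the marker median was 0.140 for oligodendrocytes, -0.080 for precursors, 0.332 for astrocytes and -0.165 for endothelial cells. For deviations from the day means, r was -0.124, -0.080, -0.042 and -0.471 in the same order. For the other cell types r was 0.319 for neurons, 0.267 for pericytes and smooth muscle and 0.079 for microglia. It was -0.059 for fibroblasts and -0.164 for GABAergic interneurons. The mean level of the oligodendrocyte markers was 9.13 to 9.97 in sprouting and 8.83 to 9.78 in non-sprouting neurons at day 7, and 8.57 to 9.22 and 8.68 to 9.24 at day 21.

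**Figure D5:**
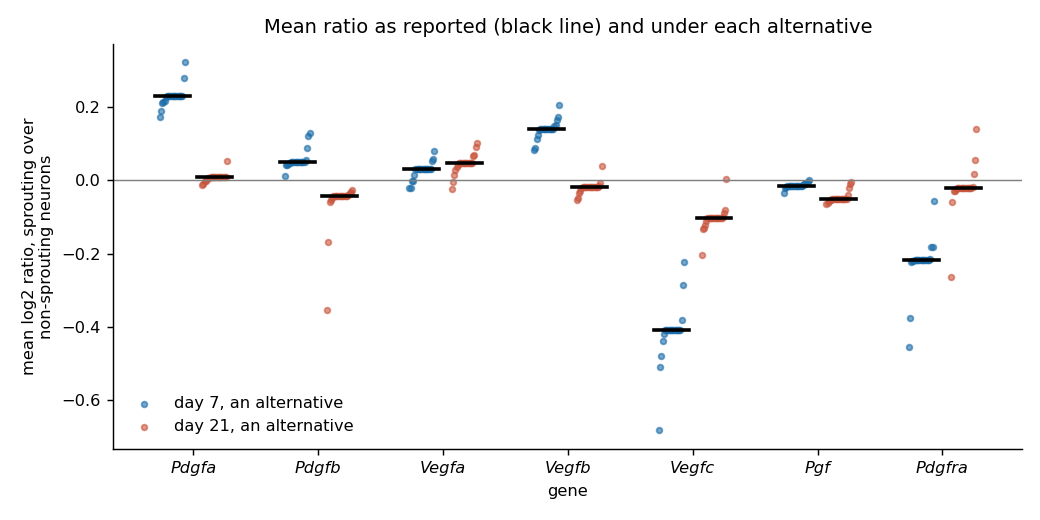
The plot shows the mean log2 ratio of 7 genes on each day as reported (black line) and under each of up to 22 alternatives (points, sorted by value within a gene and day), with day 7 in blue and day 21 in red. Pdgfa stays between 0.17 and 0.32 at day 7 and between -0.01 and 0.05 at day 21, whereas Vegfc at day 7 runs from -0.68 to -0.22.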

How the data were processed

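Two-colour Agilent scanner files of 20 arrays were used, with spot intensities as deposited, made by the authors with Agilent Feature Extraction 9.1.3.1 per the file headers. Normalized log2 ratios deposited by the authors, by a method not given in the sources used here, served as an alternative. Mean signals were background-corrected with normexp (offset 50) and loess-normalized within arrays in limma 3.58.1 (R 4.3.3), after outlier and control spots were given weight 0. The offset narrows ratios of dim probes. Dye-exchanged ratios had their sign reversed, so that each read sprouting over non-sprouting, and were averaged over the 2 arrays of an animal. Levels used Aquantile scaling between arrays. A probe had to exceed the scanner's well-above-background mark in a share of 0.5 or more of the arrays for 1 cell type and day, and to be measured in 3 animals a day, which left 37345 probes, and the brightest probe stood for a gene (33091 genes). Probe names were matched to RefSeq symbols by accession (10658), symbol (4654) or synonym (3886), and 21814 probes kept the name in the file.

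Tests were limma's lmFit and eBayes over all genes, two-sided, with Benjamini-Hochberg adjustment (threshold 0.05). The fits were also run on simulated data with known shifts. Those shifts were larger than every difference tested for the described genes in the main fit. The simulation therefore does not show how often differences of that smaller size would be found. Replicates are animals, and their number limits the precision. The genes, the lists and the tests were chosen with earlier results of these data known. Named list genes are those with 1 sign in all 5 animals and the smallest p at day 21, at most 3 per list where none passed; the 5 genes most like Pdgfa and Vegfa were ranked by r over animals, and 1 of them is not reported here. Equal replicate numbers of the days are different animals and did not deviate together (r from -0.194 to 0.001), so they were not paired. Files were scanned on 5 days, 3 of which held both groups, each with 1 animal of day 7 and 1 or 2 of day 21. The arrays of day 7 animal 3 were scanned on 2 days, and the animal was counted under the first. Alternatives covered the background, normalization, outlier spots, filters, probes, fit, scan day, replicate number and each animal left out. Except for the mean of a gene's probes, each picked the brightest probe of a gene anew from its own levels.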

Additional observations from a re-analysis of the deposited data

Results flagged for a closer look

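In groups of 5 animals, an animal was singled out where its gap to the nearest other, divided by the range, passed Dixon's value of 0.71, which chance passes in about 1 of 20 groups. Of 60 groups tested, 5 did. For Pdgfa, day 7 animal 4 had a ratio of 0.036 (nearest 0.232), and day 21 animal 2 had -0.177 (nearest 0.017). The Pdgfra level over both cell types was 11.255 in day 21 animal 1 (nearest 10.464). The Pgf ratio of day 21 animal 2 was -0.173 (nearest -0.039), in the animal that was also lowest for Pdgfa and Vegfb. The Tgfb1 ratio of day 21 animal 3 was 1.281 (nearest 0.144).

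Pik3cd was above 0 in all 5 animals of day 7 (0.221, 0.177, 0.038, 0.126 and 0.064, mean 0.125) and below 0 in all 5 of day 21 (-0.264, -0.169, -0.035, -0.039 and -0.145, mean -0.131). Of all genes, 3.51% were above 0 in all 5 animals at day 7 and 4.08% were below 0 in all 5 at day 21. The share that did both was not counted. Pik3cd was named from the lists for its sign and small p at day 21. Its day 21 mean ran from -0.463 to -0.056 over the alternatives. The difference between the days was not tested.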

How the results depend on the processing

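Ratios were recomputed under up to 22 alternatives and levels under up to 20. Of 664 recomputed values of single genes, 645 kept their direction and their side of the threshold or, for the untested day 7 ratios, moved by less than 1 SD between animals, and no tested value passed the threshold. Within that SD, the day 7 ratio of Vegfa was below 0 without animal 2 (-0.022), without background subtraction (-0.02), and with median centring or the mean of its probes (-0.002 each). The probe that stood for Vegfa may have changed without background subtraction, as the brightest was picked anew. The count of genes past the adjusted threshold was 0 for the day 21 ratio and for the levels over time under every alternative run. For the day 7 ratio, where 1 gene passed, the count was 0 with processed signals, median centring, the mean of a gene's probes and each day fitted alone, and 404 with all 20 arrays fitted singly, blocked by animal. With the replicate block it was 0 (2401 at an unadjusted p under 0.05, against 3137 without), and the block changed no call of a described gene. Leaving out an animal gave 0 to 1, with a count of 1 only without day 7 animal 5 or day 21 animal 3. The cause of these shifts was not tested.

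The other 19, all tested and uncalled, lay on the other side of 0. Without background subtraction the day 21 ratio was -0.003 for Pdgfa and -0.024 for Vegfa, and the Vegfa level difference was 0.478. These Vegfa values need not be of its first probe. With processed signals the day 21 ratios of Pdgfa, Pdgfra and Epas1 were -0.003, 0.016 and -0.086. With the mean of a gene's probes Vegfa was -0.006 at day 21 and its level difference 0.211. With the scan day as a block the level difference was 0.099 for Vegfa and 0.056 for Pgf. Over animals left out in turn, the day 21 ratio ran from -0.012 to 0.054 for Pdgfa, -0.264 to 0.14 for Pdgfra, -0.053 to 0.04 for Vegfb and -0.205 to 0.004 for Vegfc, and the Vegfa level difference from -0.283 to 0.066. Pdgfb, which was too dim, had no value under the stricter filter, nor had Tgfb1. Signal over background limits Pdgfb and Pdgfc.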
